A study of Rattus norvegicus with 24 samples.

Results

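The genes that make, package, clear and break down gamma-aminobutyric acid (GABA) were followed in rat striatum after saline, 1 injection or repeated injections of the synthetic cathinone MDPV (methylenedioxypyrovalerone). They were Gad1, Gad2, Slc32a1, Slc6a11 and Abat, chosen by function, and every kept probe that carries 1 of these names was used. They make up 5 of the 20745 genes tested, and 6 of the 26259 probes kept, because Gad1 has 2 kept probes. No member passed a test of difference between the 3 treatment groups. Gad1, read from its brighter probe, rose and fell with Gad2 from sample to sample, and Slc32a1 did so with Abat. The dimmer Gad1 probe had r = 0.072 with Gad2 over the same samples, and r = 0.438 over the single arrays.

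GABA is the transmitter of nearly all striatal neurons, of the projection neurons as well as most interneurons. Gad1 and Gad2 encode the glutamate decarboxylases that make it, Slc32a1 encodes the transporter that loads it into synaptic vesicles, Slc6a11 encodes a plasma membrane transporter found mainly on astrocytes, and Abat encodes the transaminase that begins its breakdown. MDPV blocks the reuptake of dopamine and noradrenaline, and the dorsal striatum receives dense dopamine input.

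All animals were male Long Evans rats aged 80 to 90 days that received an intraperitoneal injection on each of 5 days. Saline rats had 5 saline injections, acute rats had 4 saline injections and then 1 of MDPV at 1 mg/kg, and chronic rats had 5 injections of MDPV at 1 mg/kg. The brain was taken 24 h after the last injection, and RNA of the left dorsal striatum was measured on 1-colour Agilent arrays, 8 arrays per group and 24 in all. The study's design gives 6 animals per group. Arrays whose titles share a letter (6 pairs) were averaged, which leaves 6 samples per group and 18 in all (a pair is named by both of its replicate numbers); the labels do not say that such a pair is 1 rat, so the p-values measure the spread between these samples.

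Levels are log2 signals relative to the 75th percentile of the same array, so that 0 is the brightness of that percentile. On the 24 arrays 50.7% to 71.3% of spots were well above background and none was saturated. All 14 striatal projection neuron markers were measured, and their mean level lay between 1.83 and 2.68 in 17 samples. Saline replicate 4 stood apart at 1.11, and its mean level of 6 hypothalamic markers was 0.07, against -4.47 to -3.52 in the other samples. Results that rest on it are given with and without it; the part of neighbouring tissue in them was not tested beyond the values given.

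The probes of 60 bases are placed on the rat build rn4 by the array files. The upstream Gad1 probe lies at chr3:52813028-52813087 on the plus strand and starts at base 853 of the transcript, and the downstream Gad1 probe lies at chr3:52829951-52830010 and starts at base 3113. The Gad2 probe lies at chr17:96321562-96321621, the Slc32a1 probe at chr3:149346008-149346067 and the Abat probe at chr10:7047983-7048042 on the minus strand. The Slc6a11 probe spans 808 genomic bases, chr4:150195271-150196078, so that it crosses an intron. Exon annotation of rn4 was not used here. Sequences of the probes with an open reading frame are shown because the decarboxylase genes are relatives: capitals mark the longest run that the Gad2 probe and the upstream Gad1 probe share, 7 bases.
Gad1 upstream probe: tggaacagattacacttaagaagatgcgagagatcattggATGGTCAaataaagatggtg
Gad2: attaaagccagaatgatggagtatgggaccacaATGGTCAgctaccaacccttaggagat
Slc32a1: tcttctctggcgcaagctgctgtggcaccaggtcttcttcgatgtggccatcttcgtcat
Slc6a11: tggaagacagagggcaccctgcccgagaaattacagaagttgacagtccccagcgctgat
Abat: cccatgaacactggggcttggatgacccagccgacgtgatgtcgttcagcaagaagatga
The downstream Gad1 probe and the Gad2 probe also share no run longer than 7 bases, whereas the upstream Gad1 probe and the Abat probe share 9. No 2 member probes are therefore near copies of each other.

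The first question was whether a single or a repeated dose shifted the synthesis genes. Gad1 was read from its brighter, downstream probe, which is printed in 10 spots with an SD between spots of 0.02 to 0.09. Its level in saline ran from 2.52 to 3.28 with a median of 3.08. In acute samples it ran from 2.85 to 3.16 (median 2.97) and in chronic samples from 2.72 to 3.09 (median 3.00). The groups overlapped, and saline held both the lowest sample (replicate 3) and the highest (replicate 4). The acute level was 0.977 times that of saline (95% interval 0.833 to 1.15), and the chronic level was 0.969 times (0.826 to 1.14).

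Gad2, the second decarboxylase, ran from -1.09 to 0.03 in saline (median -0.25), from -0.64 to -0.10 in acute (median -0.34) and from -0.71 to -0.03 in chronic samples (median -0.46). The same saline samples, replicates 3 and 4, were its lowest and highest, and the other samples lay within their range. The log2 difference from saline was 0.03 (SE 0.19) in acute and -0.01 (SE 0.19) in chronic samples. In folds these are 1.02 (95% interval 0.775 to 1.34) and 0.991 (0.754 to 1.30).

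The vesicle loader Slc32a1 ran from -3.40 to -2.22 in saline (median -2.95), from -3.18 to -2.33 in acute (median -2.92) and from -3.07 to -2.71 in chronic samples (median -2.84). Here the extremes were other saline samples, replicates 6 and 7. Its level in acute samples was 1.02 times that of saline (95% interval 0.776 to 1.33), and in chronic samples 0.975 times (0.745 to 1.28). The chronic samples lay inside the range of both other groups.

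The uptake gene Slc6a11 was the dimmest member, well above background on 14 of 24 arrays (4 saline, 5 acute and 5 chronic). It ran from -5.98 to -4.84 in saline (median -5.92), from -6.52 to -4.97 in acute (median -5.41) and from -6.05 to -5.26 in chronic samples (median -5.58). The highest was saline replicate 4 and the lowest acute replicate 7. Its intervals were the widest: 1.06 times saline in acute (95% interval 0.742 to 1.52) and 1.02 times in chronic samples (0.710 to 1.46). Without saline replicate 4 the log2 differences from saline were 0.25 in acute and 0.19 in chronic samples (SE 0.23 for each), and neither passed the test.

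Abat, which begins GABA breakdown, ran from -2.46 to -2.01 in saline (median -2.22), from -2.55 to -2.04 in acute (median -2.27) and from -2.48 to -2.16 in chronic samples (median -2.29). All 3 groups covered nearly the same range. Acute samples were at 0.981 times the saline level (95% interval 0.843 to 1.14) and chronic samples at 0.961 times (0.826 to 1.12). In the comparison of chronic with acute, log2 differences were -0.01 for Gad1, -0.04 for Gad2, -0.06 for Slc32a1, -0.06 for Slc6a11 and -0.03 for Abat.

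**Figure D1:**
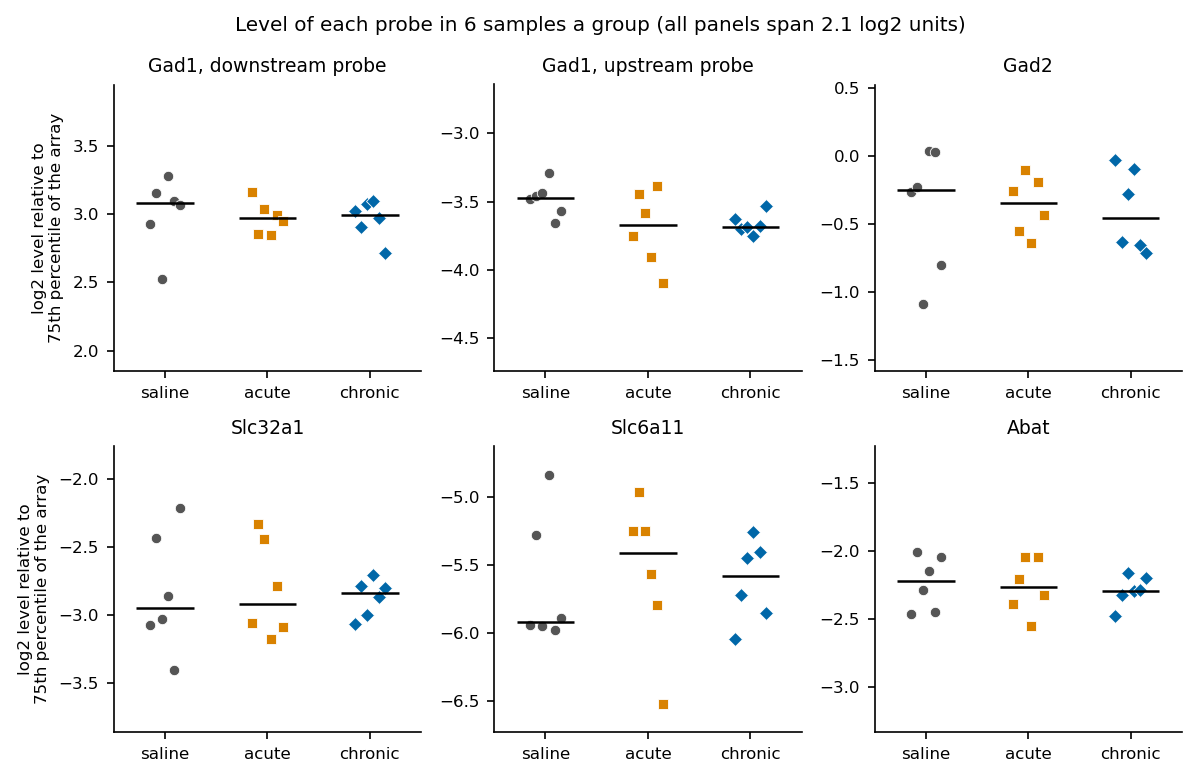
Log2 level (75th percentile of each array at 0) of the 6 member probes in each of 18 samples, by group; points are samples, bars are group medians, and every panel has the same span. The groups overlap in all 6 panels.

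In limma's fit across all genes with Benjamini-Hochberg adjustment at 0.05, 0 of 5 members and 0 of 20745 genes (0.0%) passed in each of the 3 comparisons. The smallest adjusted p of a member was 0.977. At an unadjusted p under 0.05 no member passed, beside 336 genes (1.62%) for acute against saline, 596 (2.87%) for chronic against saline and 511 (2.46%) for chronic against acute. The F test over the 3 groups gave adjusted p-values of 0.996 to 0.998 for the members, with 0.0% of genes called and 1.73% at an unadjusted p under 0.05. No member separated 2 groups without overlap, which 0.029%, 0.0484% and 0.184% of genes did in the 3 comparisons. In simulated data with 100 genes changed 2-fold and 100 changed 1.5-fold in the chronic group, the same fit called 80 and 54 of them against saline, and 14 unchanged genes. Recovery of such changes in the measured samples was not tested. In bulk tissue, fewer cells of a type and less RNA per cell cannot be told apart.

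**Figure D2:**
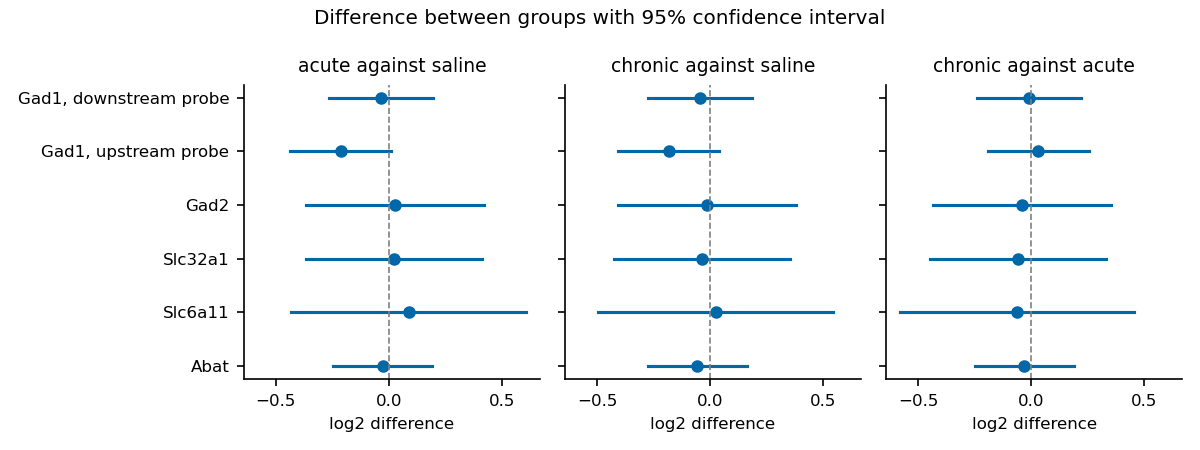
Log2 differences between groups for each member probe; points are limma estimates and lines their 95% confidence intervals, 6 samples per group. All 18 intervals include 0, and that of the upstream Gad1 probe in acute against saline reaches from -0.44 to 0.01.

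The second Gad1 probe gave different values. The upstream probe ran from -3.66 to -3.29 in saline (median -3.47), from -4.09 to -3.39 in acute (median -3.67) and from -3.76 to -3.53 in chronic samples (median -3.69). All 6 chronic samples lay below the saline mean of -3.48, although the groups overlapped. This rests on the averaging of letter pairs, since chronic arrays 2 (-3.27) and 8 (-3.25) lay above the highest saline array (-3.29). Their letter partners, chronic arrays 5 (-4.14) and 6 (-4.12), lay below the lowest saline array (-3.66). With 24 arrays as samples the chronic difference from saline was -0.19 (SE 0.14). The acute level was 0.862 times that of saline (95% interval 0.738 to 1.01) and the chronic level 0.881 times (0.754 to 1.03), with limma's adjusted p at 1.00 and 0.999. An exact two-sided permutation test gave p = 0.015 for chronic against saline, and p = 0.273 after adjustment over the 18 exact tests made (6 probes, 3 comparisons). Saline replicate 4 was the highest sample of this probe. Without it the log2 difference from saline was -0.176 in acute and -0.145 in chronic samples (SE 0.11 for each). With all samples these were -0.214 and -0.183 (SE 0.11 for each). Within the slides the chronic difference was -0.04 (SE 0.17), -0.53 (SE 0.16) and 0.09 (SE 0.31), so only on slide 2 was it larger than its SE. The distance between the 2 Gad1 probes within a sample, compared between groups, differed by 0.18 for acute and 0.14 for chronic against saline, with exact two-sided permutation p-values of 0.314 and 0.379.

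Levels of the 2 Gad1 probes correlated at r = 0.367 over 24 arrays and at r = 0.020 over 18 samples. On slides 1, 2 and 3 the value was -0.473, 0.934 and 0.672 (8 arrays each). These are descriptions without a test. Among 4311 genes with 2 kept probes, the median r over arrays was 0.363, and 50.3% of them had a lower r than the Gad1 probes. The upstream probe had r = 0.072 with Gad2 and r = 0.501 with Abat over 18 samples, against 0.781 and 0.218 for the downstream probe. Over 24 arrays the upstream probe had r = 0.438 with Gad2 and 0.496 with Abat, against 0.814 and 0.496 for the downstream probe. The contrast with Abat was thus absent over arrays, and that with Gad2 was smaller.

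The members' spread over the 18 samples came mostly from inside the groups. Treatment group accounted for 0.283% (Gad2) to 2.09% (Abat) of the variance of the 5 genes, and for 24.9% in the upstream Gad1 probe. Slide accounted for 5.53% (Gad2) to 19.6% (Slc6a11) of the variance over arrays. These group and slide shares were not set beside those of all genes. Whether they exceed the shares of unrelated groupings was not tested. The SD over samples was 0.17 for Abat, 0.18 for Gad1, 0.32 for Gad2 and Slc32a1 and 0.43 for Slc6a11. Of all genes, 25.2% had a smaller SD than Abat and 82.3% a smaller one than Slc6a11. Arrays that share a title letter differed by a median of 0.33 in Gad1 and 0.59 in Gad2, and other arrays of 1 group on different slides by 0.22 and 0.33, so the letter pairs were not closer than other pairs for these genes. The same held for Slc32a1 (0.49 against 0.36) and Abat (0.45 against 0.24), while for Slc6a11 the letter pairs were closer (0.36 against 0.45). Over all genes limma's consensus correlation of arrays that share a title letter was -0.367. Such arrays were thus not more alike than others of their group, beyond the members too. Whether averaging them narrows the spread behind the p-values was not tested.

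The next question was whether the members varied together. Of their 10 pairs, 2 passed a two-sided permutation test over the 18 samples after adjustment over the pairs. Gad1 and Gad2 had r = 0.781 (adjusted permutation p = 0.00115) and Spearman's rho = 0.709 (adjusted permutation p = 0.0068). Slc32a1 and Abat had r = 0.770 (adjusted permutation p = 0.00115) and rho = 0.792 (adjusted permutation p = 0.002). Centred on the group means, the pairs kept r = 0.787 and 0.774. Unadjusted, the r values had permutation p = 0.00016 and 0.00023.

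Gad1 and Gad2 were both lowest in saline replicate 3 (2.52 and -1.09) and highest in saline replicate 4 (3.28 and 0.03). Without saline replicate 3 and chronic replicate 7, the samples farthest from the median of Gad1, r was 0.608 (permutation p = 0.013, adjusted p = 0.0634), so the call of this pair rests on those samples. Without saline replicate 4 alone r was 0.750, and without saline replicates 3 and 4 it was 0.605. Within slides 1, 2 and 3 it was 0.891, 0.863 and 0.667. With the mean of both Gad1 probes in place of the downstream probe, r was 0.571.

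Slc32a1 and Abat were both high in saline replicate 7 (-2.22 and -2.04) and in saline replicates 2 and 5 (-2.43 and -2.01), and both low in acute replicates 4 and 6 (-3.18 and -2.55). Without the samples farthest from the median of Slc32a1, saline replicates 6 and 7, r was 0.721 (adjusted permutation p = 0.0149). Without saline replicate 4 it was 0.784, and within the slides 0.803, 0.902 and 0.876. This pair kept its call in each of these, apart from slide 1, where adjusted p was 0.0614 with 8 arrays (exact permutation test). Over the 18 samples the members of 1 correlated pair did not pass with those of the other. Gad1 had r = 0.106 with Slc32a1 and 0.218 with Abat, and Gad2 had r = -0.178 and -0.006. Over 24 arrays these were 0.360 and 0.496 for Gad1, and 0.146 and 0.297 for Gad2. There Gad1 with Abat passed after adjustment (permutation p = 0.0139 before it), and its r on the slides was 0.468, 0.611 and 0.620. The separation of the 2 pairs thus rests on the averaging of letter pairs. The pairs with Slc6a11 had r of 0.251 to 0.425, with adjusted permutation p-values of 0.232 to 0.522.

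**Figure D3:**
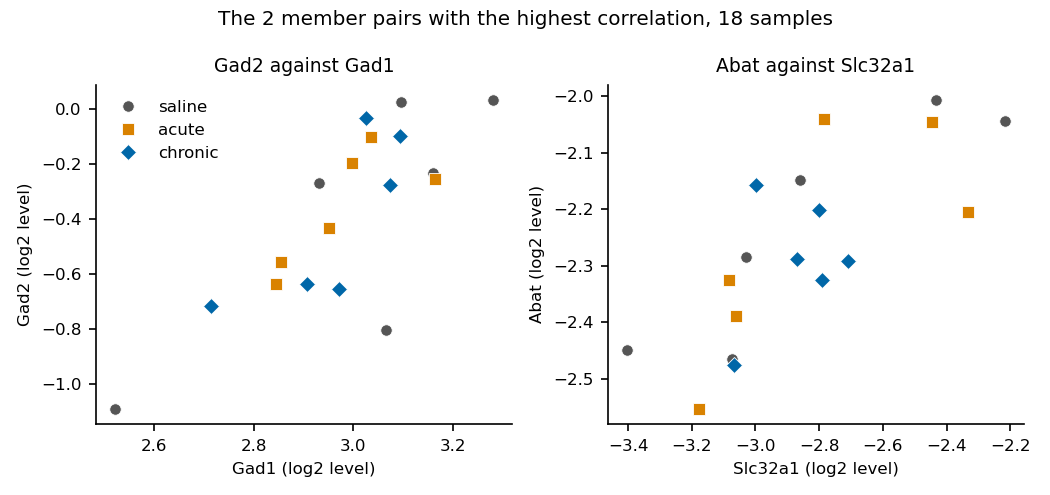
Gad2 against Gad1 (left) and Abat against Slc32a1 (right), log2 level in each of 18 samples, with symbols by treatment group. Both pairs rise together (r = 0.781 and 0.770), and samples of the 3 groups are mixed along the slope.

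The levels of the 2 pairs were set beside marker lists of cell types and neighbouring tissue, 55 relations in all with the mean level of each of 11 lists. Only the cholinergic interneuron list (Chat, Slc5a7, Slc18a3, Lhx8, Isl1 and Slc17a8, all measured) passed after adjustment over the 55, with both decarboxylases. For Gad1 r was 0.902 (adjusted permutation p = 0.00055) and rho 0.831 (adjusted permutation p = 0.0011). For Gad2 r was 0.831 (adjusted permutation p = 0.000825) and rho 0.835 (adjusted permutation p = 0.0011). The list level ran from -3.53 to -2.12 in saline, from -2.79 to -2.40 in acute and from -2.97 to -2.46 in chronic samples, so the groups overlapped. Its lowest and highest samples were again saline replicates 3 and 4, and without both r was 0.759 for Gad1 and 0.708 for Gad2. Without saline replicate 4 alone r was 0.880 for Gad1 and 0.811 for Gad2. Within the slides r was 0.927, 0.906 and 0.780 for Gad1, and 0.944, 0.838 and 0.689 for Gad2.

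All 6 genes of that list took part with Gad1: r was 0.88 for Chat, which encodes the enzyme that makes acetylcholine, 0.71 for the choline transporter Slc5a7, 0.61 for the vesicular acetylcholine transporter Slc18a3, 0.69 and 0.73 for the transcription factors Lhx8 and Isl1, and 0.70 for the vesicular glutamate transporter Slc17a8. With Gad2 they ran from 0.41 (Slc18a3) to 0.76 (Chat). After linear removal of the list level from both, Gad1 and Gad2 had r = 0.129, and Slc32a1 and Abat had r = 0.771. Slc32a1 and Abat had r of 0.052 and 0.130 with the cholinergic list. Of its genes, Slc18a3 had r = 0.527 with Slc32a1 and 0.568 with Abat. The other genes of the list ran from -0.210 to 0.108 with Slc32a1 and from -0.147 to 0.215 with Abat. The values after removal follow from the r values with the list, which was the only list that passed in these same samples. They are no separate test, and the part of cholinergic cells in the Gad1 and Gad2 pair was not tested.

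**Figure D4:**
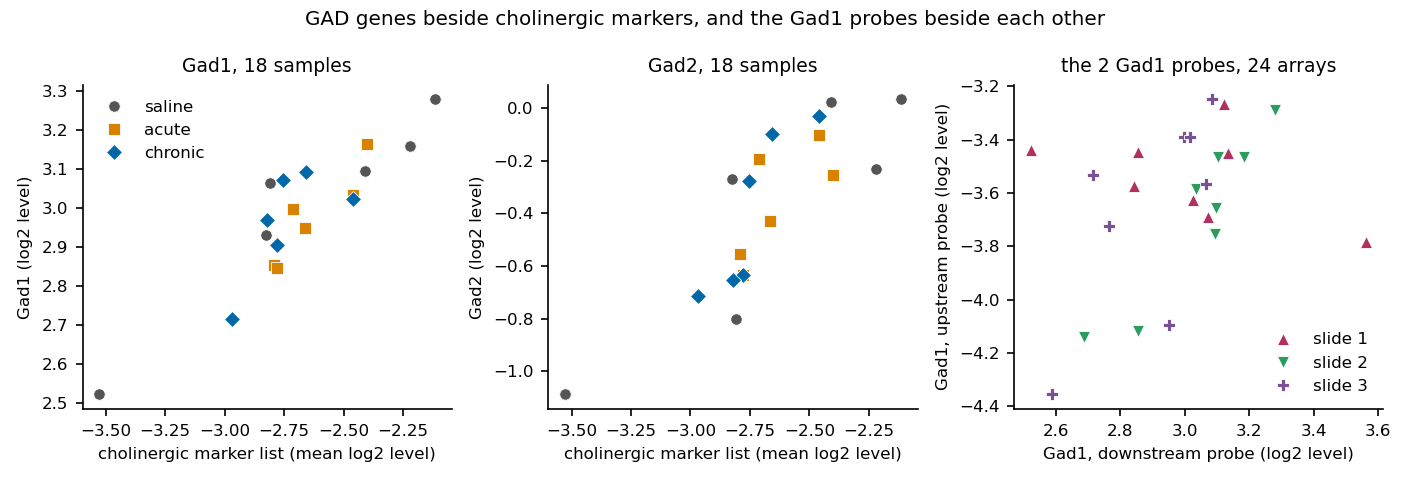
Gad1 (left) and Gad2 (middle) against the mean log2 level of 6 cholinergic markers in 18 samples, and the upstream against the downstream Gad1 probe on 24 arrays by slide (right). Both decarboxylases rise with the list (r = 0.902 and 0.831), and the 2 Gad1 probes have r = 0.367.

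With the markers of striatal projection neurons, themselves GABA neurons, no member's relation passed over 18 samples: r was -0.083 for Gad1, -0.131 for Gad2, 0.102 for Slc32a1, -0.442 for Slc6a11 and 0.076 for Abat. These values rested on a few samples. Without saline replicate 4 and chronic replicate 4, the farthest from the list's median, r was 0.772 for Gad1 (adjusted permutation p = 0.0403), 0.510 for Gad2 (0.286), 0.273 for Slc32a1 (0.683), 0.00564 for Slc6a11 (0.983) and 0.426 for Abat (0.443). Without saline replicate 4 alone Gad1 had r = 0.469 (adjusted permutation p = 0.453), and on the 3 slides it had r = 0.840, -0.403 and 0.711. For the list of GABA interneurons r lay between -0.126 (Slc32a1) and 0.266 (Slc6a11). Astrocyte markers had r = 0.412 with Slc6a11, the largest of their 5 values, and the relation did not pass.

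Slc6a11 had its highest r with the list of thalamus, septum and pallidum, 0.637 (permutation p = 0.00321, adjusted p = 0.0588), with rho = 0.467 (adjusted permutation p = 0.359). Without saline replicate 4 alone this r was 0.545 (adjusted permutation p = 0.264). Without saline replicate 4 and acute replicate 2 it was 0.406, and on slide 1 it was -0.174. With the hypothalamic list Slc6a11 had r = 0.578 (adjusted permutation p = 0.103), and 0.563 without saline replicate 4 alone (adjusted permutation p = 0.264). The hypothalamic r without saline replicate 4 and chronic replicates 2 and 5 was 0.608 (adjusted permutation p = 0.135), and on the slides it was -0.431, 0.610 and 0.772.

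**Figure D5:**
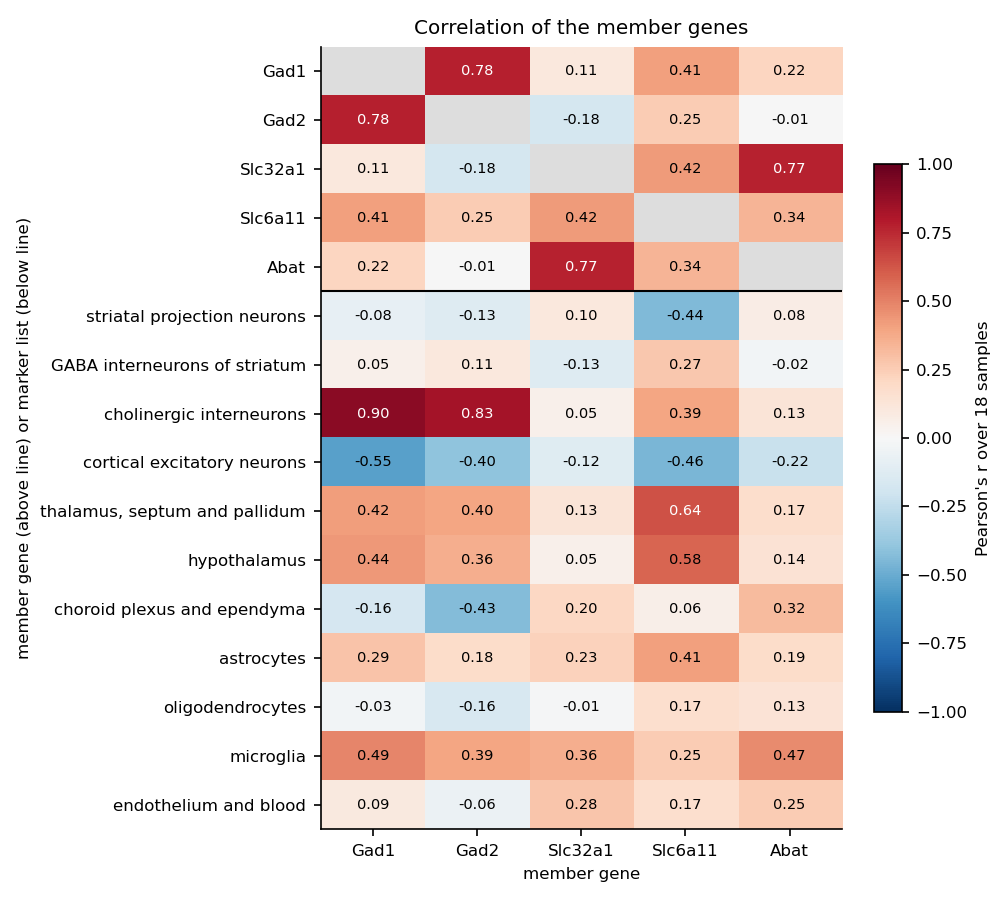
Pearson's r over 18 samples of each member gene with the other members (above the line) and with the mean level of 11 marker lists (below the line). The cells that passed after adjustment are Gad1 with Gad2, Slc32a1 with Abat, and both decarboxylases with the cholinergic list.

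Array-wide measures moved with some members without passing. Gad1 had r = 0.591 with the share of spots well above background, and Slc32a1 and Abat had r = 0.580 and 0.598 with an index of GC content, the median level of genes with GC-rich probes minus that of genes with GC-poor probes (adjusted permutation p = 0.0777 for each, 20 relations). The probes of Slc32a1, Slc6a11 and Abat have 55% GC, the Gad2 probe 45% and the downstream Gad1 probe 35%. After removal of the GC index Slc32a1 and Abat had r = 0.649 and Gad1 and Gad2 r = 0.788. After removal of the share of spots well above background the values were 0.754 and 0.714. Beyond these values, the part of such measures in the pairs was not tested.

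For each member the 5 named genes with the most similar pattern over 18 samples were listed, as a description without a test. For Gad1 they were Zfhx3 (r = 0.890), Chat (0.879), Qpct (0.867), Ctbs (0.854) and Sfmbt2 (0.848). Zfhx3 encodes a transcription factor and Qpct an enzyme that modifies the ends of peptides. For Gad2 they were Zfp52 (0.860), Rab27b (0.859), Ankrd26 (0.840), Gpr34 (0.833) and Pals1 (0.831). Rab27b is a GTPase of vesicle release, and Gpr34 a receptor of microglia.

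For Slc32a1 those reported are Vstm2l (0.902), Lsm10 (0.885), Tor1aip2l1 (0.883) and Plxnb2 (0.867). Plxnb2 encodes a semaphorin receptor. For Abat they were Fzd9 (0.850), Gfer (0.848), Slc9a8 (0.831), Rnd2 (0.827) and Wbp1 (0.825). Slc6a11 was followed by Apoc2 (0.877), Gpc3 (0.839), Ndnf (0.824), Nrsn2 (0.813) and Ripk4 (0.811). No gene stood in the list of more than 1 member. Of 20680 genes ranked by r, Gad2 was number 30 for Gad1 and Gad1 number 24 for Gad2, Slc32a1 was number 19 for Abat and Abat number 111 for Slc32a1.

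The rest of the pathway was read from lists of related genes. No gene of any list passed after adjustment in any comparison, beside 0.0% of all genes. Of the other transporters, Slc6a13, which also carries GABA, stood at -4.53 ± 0.26 in saline, -4.46 ± 0.52 in acute and -4.25 ± 0.32 in chronic samples (SD, n = 6). The betaine and GABA transporter Slc6a12 stood at -5.48 ± 0.24, -5.71 ± 0.69 and -5.49 ± 0.22, and the taurine transporter Slc6a6 at -0.21 ± 0.50, -0.15 ± 0.27 and -0.16 ± 0.27, in the same order (SD, n = 6). For each of the 3 the groups differed by less than the SD of the most variable group.

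The enzymes after Abat changed no more. Aldh5a1, which oxidises the semialdehyde that Abat makes, stood at -2.60 ± 0.28 in saline, -2.71 ± 0.37 in acute and -2.57 ± 0.15 in chronic samples (SD, n = 6). Over the 18 samples it had r = 0.703 with Slc32a1, 0.734 with Slc6a11 and 0.653 with Abat, and 0.393 and 0.141 with Gad1 and Gad2. Akr7a2, an aldehyde reductase of the same branch, had r = 0.746 with Slc32a1 and 0.669 with Abat, and -0.066 and -0.277 with Gad1 and Gad2. These are descriptions, since genes on 1 set of arrays share their depth and background.

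Of 13 genes of glutamate and glutamine supply, Slc38a5, a glutamine transporter, had the smallest F-test p. It stood at -1.92 ± 0.19 in saline, -1.77 ± 0.21 in acute and -2.15 ± 0.27 in chronic samples (SD, n = 6). Its log2 difference of chronic from acute was -0.38 (SE 0.13), with a limma p of 0.00936 before and 0.961 after adjustment.

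Of the 10 transcription factors of GABA neurons 8 were measured. Dlx1 stood at -1.43 ± 0.54 in saline, -1.99 ± 0.64 in acute and -2.16 ± 0.24 in chronic samples (SD, n = 6), a difference of chronic from saline of -0.74 (SE 0.27) with a limma p of 0.0143 before and 0.999 after adjustment. Dlx1 had r = -0.06 with Gad1 and 0.01 with Gad2.

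The 3 genes of pyridoxal phosphate supply, the cofactor of both decarboxylases and of Abat, had differences from saline of -0.11 to 0.12 in acute and -0.09 to 0.14 in chronic samples. The 17 GABA receptor subunits and anchors had differences from saline of -0.13 to 0.15 in acute and -0.07 to 0.23 in chronic samples. In chronic samples 10 of the 17 were higher than in saline, with a median of 0.03. The anchor gephyrin (Gphn) had the smallest F-test p of this list, 0.197 before adjustment in limma.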

How the data were processed

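Total RNA of 24 rat striatum samples was hybridised to 1-colour Agilent arrays. Per the file headers, the intensity values are Agilent Feature Extraction 10.7 processed signals, background-corrected by the scanner software, with coordinates on rn4. The deposited flags mark spots (scores of 0 or 1, per the file headers) as outliers or as well above background. The authors' deposited value table holds log2 values of the same spots, with medians of 7.23 to 7.24; each column had a rank correlation of at least 0.99999 with its own array, its centring is not given in the sources used here, and it served as an alternative.

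The log2 processed signal of each array was set against the 75th percentile of its 58717 non-control spots, outlier spots were left out, and spots of a probe were averaged. A probe was kept if a share of 0.5 or more of the arrays of any 1 group had it well above background (26259 of 45598), and the brightest probe stood for a gene. Names came from the files, updated through RefSeq accessions (23845 probes matched). Arrays sharing a title letter were averaged. limma 3.58.1 (R 4.3.3) was fitted to all 3 groups, with Benjamini-Hochberg adjustment over 20745 genes. Correlations used 100000 permutations (scipy 1.17.1). The fit was tested on simulated data. The number of arrays limits the precision.

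The members and lists were chosen with earlier results of these data known. All probes of the members are named, the 5 most similar genes of each, and in the pathway lists up to 4 genes of smallest F-test p; a few of these are not reported here. The alternatives tried are given with their effect in the closing section.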

Additional observations from a re-analysis of the deposited data

How the results depend on the processing

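No gene was called in any comparison or in the F test under any of the 33 settings tried, and the smallest adjusted p of a member difference in any of them was 0.442. No paired analysis was possible because the replicate numbers were given in accession order and pair no samples across groups. The member differences are near 0, and under the alternatives other than leaving out a sample their sign turned in 35 of 222 log2 values. The cause was not tested. Some of the 222 could not turn, because the setting leaves the difference as it was. Another variance moderation in limma is such a setting, and so is the mean of kept probes for members other than Gad1. The share is therefore no measure of stability. With quantile normalization, Gad1 chronic against acute was 0.0099, Slc6a11 chronic against saline -0.013 and the upstream Gad1 probe chronic against acute -0.015. With the authors' values these were 0.022, -0.0065 and -0.0072. With normexp, Gad1 chronic against acute was 0.0065 and the upstream probe -0.063; with the mean of kept probes Gad1 was 0.010. With the striatal marker level as a covariate, Gad2 chronic against saline was 0.0095. With 24 arrays as samples, acute against saline was -0.029 for Gad2 and -0.075 for Slc32a1, and chronic against acute 0.028 for Slc32a1 and 0.018 for Abat. With the title letter as a random block (consensus correlation -0.367) these were -0.067, -0.14, 0.086 and 0.051. With slide as a block, Slc32a1 was -0.062 for acute against saline, and chronic against acute was 0.016 for Slc32a1 and 0.0083 for Abat. On slide 1 alone, acute against saline was 0.38 for Gad1 and 0.028 for Abat, chronic against saline 0.24 for Gad1 and 0.37 for Gad2, and chronic against acute 0.0021 for Gad2. On slide 2, acute against saline was -0.15 for Gad2, -0.010 for Slc6a11 and 0.013 for Abat, chronic against saline -0.13 for Slc6a11, and chronic against acute -0.48 for the upstream probe. On slide 3, acute against saline was -0.12 for Gad2 and -0.45 for Slc32a1, and chronic against saline 0.076 for Abat and 0.087 for the upstream probe. On the same slide chronic against acute was 0.075 for Gad1, 0.041 for Gad2, 0.38 for Slc32a1, 0.014 for Slc6a11 and 0.25 for Abat. Leaving out 1 sample at a time, acute against saline ran from -0.13 to 0.020 for Gad1, -0.11 to 0.11 for Gad2, -0.091 to 0.15 for Slc32a1, -0.031 to 0.28 for Slc6a11 and -0.074 to 0.031 for Abat. Chronic against saline then ran from -0.14 to 0.0092 for Gad1, -0.15 to 0.071 for Gad2, -0.15 to 0.087 for Slc32a1 and -0.048 to 0.19 for Slc6a11. Chronic against acute ran from -0.037 to 0.039 for Gad1, -0.11 to 0.023 for Gad2, -0.13 to 0.037 for Slc32a1, -0.25 to 0.056 for Slc6a11, -0.088 to 0.014 for Abat and -0.048 to 0.093 for the upstream probe. None of these passed the test. The filter that asks for signal on every array of a group left no value for Slc6a11.

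Of the 2 correlated pairs 1 passed without the 2 farthest samples, and 0, 1 and 1 passed on slides 1, 2 and 3, each with 8 arrays. Other settings added a pair, and with 1 sample left out 2 to 3 pairs passed. Without saline replicate 7, Slc32a1 with Slc6a11 also passed (r = 0.589, permutation p = 0.0133 before adjustment). With the mean of both Gad1 probes, Gad1 with Slc6a11 did (r = 0.565, permutation p = 0.0138 before adjustment). Over 24 arrays Gad1 with Abat did (r = 0.496, permutation p = 0.0139 before adjustment). The count of marker relations was 0 on each slide and ran from 2 to 4 with 1 sample left out (4 without chronic replicate 3 and 4 without acute replicate 7). Uncalled pairs turned sign: Gad2 with Slc32a1 was 0.146 over 24 arrays, 0.075 on slide 1 and 0.457 on slide 2. Gad2 with Abat was 0.297 over 24 arrays, 0.129 without the 2 farthest samples, 0.194, 0.610 and 0.204 on the slides, and -0.104 to 0.113 with 1 sample left out. On slide 3, Slc6a11 had r = -0.452 with Gad1, -0.411 with Gad2, -0.129 with Slc32a1 and -0.321 with Abat, and on slide 1 r = -0.174 with the list of thalamus, septum and pallidum and -0.431 with the hypothalamic list. With the markers of striatal projection neurons, Gad1 had rho = 0.135, r = 0.772 without the 2 farthest samples (past the threshold), 0.840 and 0.711 on slides 1 and 3, and -0.366 to 0.469 with 1 sample left out. Gad2 had r = 0.510 without the 2 farthest, 0.761 and 0.301 on slides 1 and 3, and -0.356 to 0.229 with 1 left out. Slc6a11 had 0.00564 without the 2 farthest and 0.473 on slide 1; on slide 2 Slc32a1 had -0.156 and Abat -0.321, and Abat ran from -0.017 to 0.358 with 1 left out. The r of the 2 Gad1 probes was 0.020 over samples and -0.473, 0.934 and 0.672 on the slides. The settings for the upstream Gad1 probe, and the removal of array-wide measures and marker levels, were chosen after seeing the data. Slc6a11, well above background on 14 of 24 arrays, is limited by its signal.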
